A study of Mus musculus with 6 samples.

Results

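The genes described here carry sodium and chloride across the sarcolemma, the excitable surface membrane of the muscle fiber: the sodium channel pore Scn4a and its accessory subunit Scn4b, the chloride channel Clcn1, the sodium pump subunits Atp1b1 and Atp1b2, and the pump regulator Fxyd1. All probes that the platform annotation assigns to these symbols were taken. Of the 6 genes, 5 had a probe (7 of 25697 probes), and all 5 were among the 8740 genes that were above background on at least 3 arrays. The annotation paired no probe with Scn4a, so that the adult pore itself was not analysed here.

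Gene expression was measured on Illumina bead arrays in gastrocnemius (GA) muscle of adult male mice (12 weeks) to follow the response of muscle to the loss of its nerve. The denervated group held 3 muscles of the left leg, taken 14 days after a 2 mm piece of the sciatic nerve had been cut out, and the control group held 3 muscles of the right leg, with the nerve intact. The control muscles thus come from operated animals that carried the lesion on the other side, and the strain and the number of mice are not given in the sources used here. With nothing that names separate animals, p-values cover only the spread among the 3 samples of a group, which may be technical, and in whole muscle fewer cells of a type cannot be told apart from less RNA per cell.

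A muscle action potential starts when voltage-gated sodium channels open. Chloride flow through ClC-1, the product of Clcn1, then steadies the membrane and helps it to return to rest, and loss of this channel causes myotonia in mice and humans. The Na,K-ATPase pumps sodium out and potassium in after each spike. It needs a catalytic alpha subunit and a beta subunit that brings the pump to the membrane. In muscle an FXYD protein tunes the affinity of the pump for sodium. Fibers without a nerve are known to change these currents, among other things by a lower chloride conductance.

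The arrays had 11551 to 12785 probes above background each, and replicates of a group correlated at 0.9878 to 0.9939. The denervated arrays were brighter before normalization, with a 95th percentile of signal of 4000 to 4048, against 2896 to 3022 on the control arrays. As a check of the tissue, all 11 kept genes of a muscle fiber list, such as Ckm and Acta1, were above background in both groups, 1 of them called higher and 2 lower. Their summed normalized signal was 484200 to 492600 in denervated and 484800 to 512100 in control muscles, with 3 of the 11 near the ceiling of the scanner. Markers of some other cell types differed in level. Of 8 measured macrophage markers 8 rose (summed signal 7161 to 8939 in denervated, 2901 to 3093 in control muscles). Of 8 endothelial markers 6 fell (9136 to 9931 in denervated, 11720 to 15150 in control muscles), of 6 Schwann cell and myelin markers 5 fell and 1 rose (2709 to 3335 in denervated, 5800 to 13800 in control muscles, with 2 of the 6 above background on no denervated array), and of 5 smooth muscle markers 4 fell (6486 to 9580 in denervated, 10450 to 15100 in control muscles). The summed signals overlapped between the groups for 8 fibroblast markers (37040 to 42700 in denervated, 35250 to 41280 in control muscles), 2 adipocyte markers (863.3 to 2315 in denervated, 1830 to 3219 in control muscles) and 3 erythrocyte markers (26430 to 76530 in denervated, 70350 to 79850 in control muscles). Their part in the results below was not tested.

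Every measured gene of the group was lower in denervated muscle. All 5 passed the threshold as lower (adjusted p under 0.05, limma over all 12546 kept probes), in a comparison that called 21.6% of all kept genes lower and 43.8% in either direction. Counted by probe, 5 of their 6 kept probes were called lower, beside 21.0% of all kept probes lower and 42.9% in either direction. In all 5 genes the denervated values lay below all control values, as they did in 26.8% of all kept genes. The count depended on the scaling: 3 of the 5 were called lower with a median shift in place of quantile normalization (12.8% of all genes) and without scaling between arrays (8.12%), and 4 in a fit blocked on replicate number, with the probes of a gene averaged, or without any 1 array other than control replicate 2. The falls were of unequal size. Scn4b fell 7.84-fold, Clcn1 3.52-fold and Atp1b1 3.39-fold, whereas Fxyd1 and Atp1b2 fell 1.48-fold and 1.27-fold. The first 3 are among the 5.94% of genes that were called and more than 2-fold lower. The median log2 fold change of the 5 genes was -1.76, and that of all kept genes was -0.0033.

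The promoters of the 3 genes with the large falls are shown, chosen by the size of the fall alone. Whether these genes share a control was not tested. The sequences are the 250 bases before the transcription start given by RefSeq for mouse build GRCm38.p6, written 5′ to 3′ on the strand of the gene, at chr9:45138374-45138623 (plus strand) for Scn4b, chr6:42286435-42286684 (plus strand) for Clcn1 and chr1:164458356-164458605 (minus strand) for Atp1b1. Capitals mark matches to the E-box bound by myogenic factors (CANNTG), to the GC box (GGGCGG, either strand) and to the binding motif of the muscle factor MEF2.
Scn4b: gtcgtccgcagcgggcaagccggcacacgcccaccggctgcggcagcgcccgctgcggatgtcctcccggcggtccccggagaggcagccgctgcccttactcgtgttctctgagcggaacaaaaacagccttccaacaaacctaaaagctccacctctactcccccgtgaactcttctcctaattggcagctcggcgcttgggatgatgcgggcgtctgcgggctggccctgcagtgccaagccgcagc
Clcn1: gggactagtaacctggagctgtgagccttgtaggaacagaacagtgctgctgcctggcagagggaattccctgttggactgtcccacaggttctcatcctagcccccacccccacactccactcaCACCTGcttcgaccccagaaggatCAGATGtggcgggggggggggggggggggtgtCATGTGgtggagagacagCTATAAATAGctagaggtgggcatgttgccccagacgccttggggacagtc
Atp1b1: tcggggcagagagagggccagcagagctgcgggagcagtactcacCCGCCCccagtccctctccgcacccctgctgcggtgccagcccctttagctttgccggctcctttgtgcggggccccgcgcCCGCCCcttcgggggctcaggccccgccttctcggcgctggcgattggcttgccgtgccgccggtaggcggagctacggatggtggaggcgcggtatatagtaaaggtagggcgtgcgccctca

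The 3 windows differed in their letters. Clcn1 held 3 E-boxes and 1 MEF2 motif, which starts 51 bases before the transcription start. Atp1b1 held 2 GC boxes and Scn4b no match to the 3 motifs. In 32851 promoter windows of the same length the E-box was found in 66.2%, the GC box in 32.7% and the MEF2 motif in 2.92%. A match is a description of the letters and not a site shown to be bound. Of the 6 genes 5 had an entry in the promoter table, Scn4a and Fxyd1 among them, while Atp1b2 is named only.

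Scn4b showed the largest change. It encodes a single-pass beta subunit that binds the sodium channel pore through an extracellular immunoglobulin domain and modulates its gating. Its normalized signal was 767, 859 and 1035 in denervated muscles, against 6972, 6986 and 6744 in control muscles. The groups lay far apart, and the control values stood within a few percent of each other. The log2 fold change was -2.97 ± 0.13 (SE, n = 3 per group; adjusted p = 1.4e-06, limma). By this value Scn4b ranked 27 among the falls of 8740 genes, so that 0.297% of genes fell more. It passed the threshold in all 19 alternative settings, with log2 fold changes of -3.09 to -2.49.

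**Figure D1:**
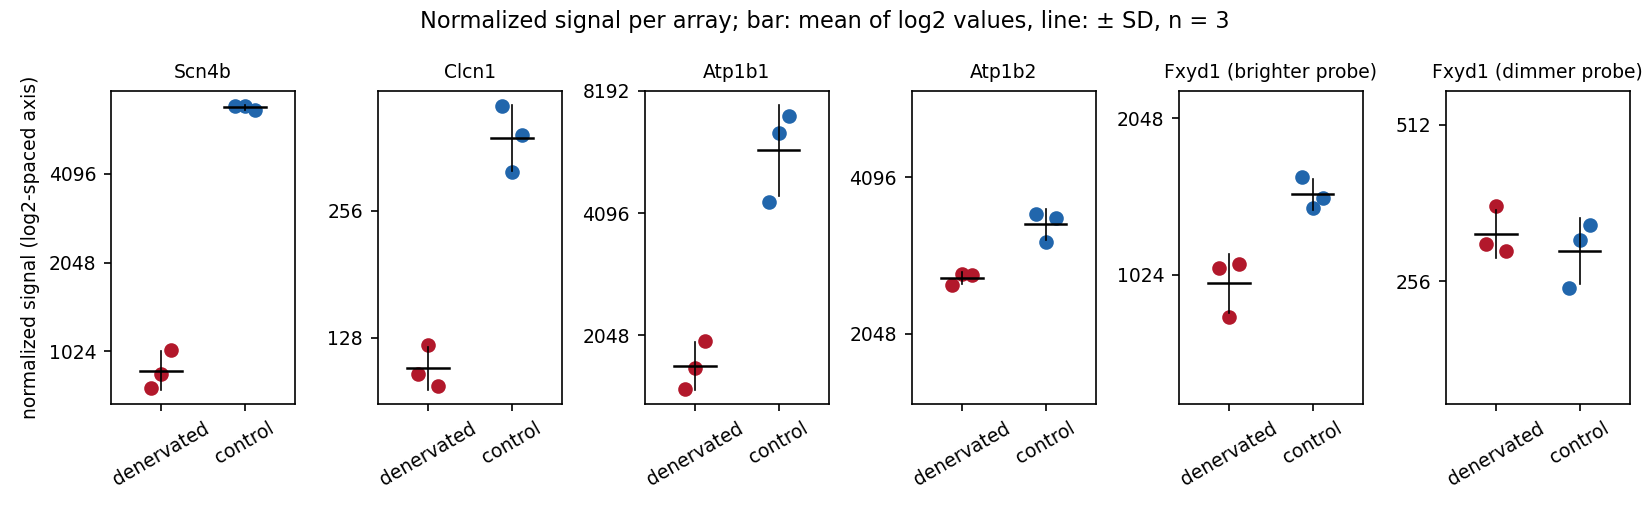
Normalized signal (log2-spaced vertical axes, each panel with its own range) of the 6 kept probes on the 3 denervated (red) and 3 control (blue) arrays; bars are the means of the log2 values and lines ± SD. Denervated values lay below all control values for Scn4b, Clcn1, Atp1b1, Atp1b2 and the brighter Fxyd1 probe, and overlapped them for the dimmer Fxyd1 probe; the order of Atp1b2 holds for quantile-normalized values and turned without scaling between arrays (log2 fold change 0.12).

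Clcn1, the chloride channel of the fiber membrane, was measured by 1 kept probe of moderate brightness. The 3 denervated muscles gave a normalized signal of 105, 123 and 98.1, against 454, 316 and 387 in control muscles. The lowest control value was more than 2-fold above the highest denervated one. The log2 fold change was -1.82 ± 0.16 (SE, n = 3 per group; adjusted p = 4.46e-05, limma), and 1.5% of genes fell more. A second, dimmer probe stayed under the filter, being above background on 0 denervated and 1 control arrays. It stood at 36.8, 37.6 and 34.8 in denervated and at 60.1, 48.2 and 76.3 in control muscles, values that do not overlap but were not tested. The fall of the kept probe was called in all 19 alternatives, but its size depended on the background: the log2 fold change was -1.10 without background correction and -1.13 in the quantile-normalized values of the authors, which keep the background.

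Atp1b1, the common beta subunit of the sodium pump, fell by a similar amount. In denervated muscles it had a normalized signal of 1514, 1706 and 1987, against 4363, 6461 and 7099 in control muscles. Control replicate 1 stood lower than the other control muscles but still more than 2-fold above the highest denervated value. The log2 fold change was -1.76 ± 0.19 (SE, n = 3 per group; adjusted p = 0.000164, limma), and 1.65% of genes fell more. The call was kept in all 19 alternatives (log2 fold changes of -1.97 to -1.30). Control replicate 1 also had the lowest summed signal of the Schwann cell markers (5800, against 13800 and 12220 in control replicates 2 and 3) and of the endothelial markers (11720, against 15150 and 14180). The share of these cells in the Atp1b1 signal was not tested, while Clcn1 stood highest in the same muscle.

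Atp1b2, a second beta subunit that is also known as an adhesion molecule of glia, changed little. Its normalized signal was 2538, 2670 and 2661 in denervated muscles, against 3486, 3077 and 3424 in control muscles. The values did not overlap, but 25.6% of all genes fell more. The log2 fold change was -0.34 ± 0.11 (SE, n = 3 per group; adjusted p = 0.035, limma), with a 95% interval of -0.59 to -0.09, and it turned to 0.12 without scaling between arrays, where the median of all genes stood at 0.45. The raw signal of the probe, before any correction, was 3094, 3208 and 3160 in denervated and 3006, 2647 and 3067 in control muscles. Its call was lost with a median shift in place of quantile normalization (-0.12), and also when any 1 of the denervated samples, control replicate 1 or control replicate 3 was left out (0.0685 to 0.0963 for the adjusted p, limma). With the replicate number as a block the adjusted p was 0.0568.

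Whether the beta subunits changed unequally was asked within arrays. The log2 difference between Atp1b1 and Atp1b2 was -0.75, -0.65 and -0.42 on the denervated arrays, against 0.32, 1.07 and 1.05 on the control arrays. All denervated values lay below all control values. Atp1b1 thus fell by 1.42 more than Atp1b2 on the log2 scale (p = 0.1, exact two-sided permutation test, the smallest p that 3 against 3 arrays can give). A shift of whole arrays cancels in this difference, and it stayed between -1.66 and -1.29 in the alternatives. Atp1b3, a beta subunit found in many tissues, was picked out after its values had been seen. Its normalized signal was 3879, 4101 and 4483 in denervated muscles, against 3213, 3296 and 3488 in control muscles. All denervated values were above all control values, as in 28.2% of kept genes, and the log2 fold change of 0.32 ± 0.11 missed the threshold at an adjusted p of 0.0505 (limma, 95% interval 0.06 to 0.57), though it passed in 10 of 19 alternatives and was positive in all of them.

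Fxyd1, or phospholemman, binds the pump and restrains it until it is phosphorylated. Its 2 kept probes disagreed. By the brighter probe the normalized signal was 1057, 849 and 1073 in denervated muscles, against 1576, 1379 and 1437 in control muscles. These values did not overlap, and the log2 fold change was -0.57 ± 0.13 (SE, n = 3 per group; adjusted p = 0.00859, limma). By the dimmer probe it was 302, 357 and 293 in denervated muscles, against 249, 307 and 328 in control muscles. Here the groups overlapped, and the log2 fold change was 0.11 ± 0.14 (adjusted p = 0.574, limma) with a 95% interval of -0.22 to 0.44. The annotation pairs the probes with different Fxyd1 transcripts. The fall of the brighter probe was not called when the probes were averaged (-0.23), with a median shift (-0.32) or without scaling (-0.07), where the dimmer probe stood at 0.60. Such disagreement was common: of 2258 genes with several kept probes, 25 were called in opposite directions and 673 by some of the probes only.

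Each value rests on many beads. The 7 probes of the group were read on 25 to 56 beads per array, and the standard error between beads was 3.94% to 12.9% of the signal. The highest raw signal among them was 6224, far under 60000, the level taken as the ceiling of the scanner.

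**Figure D2:**
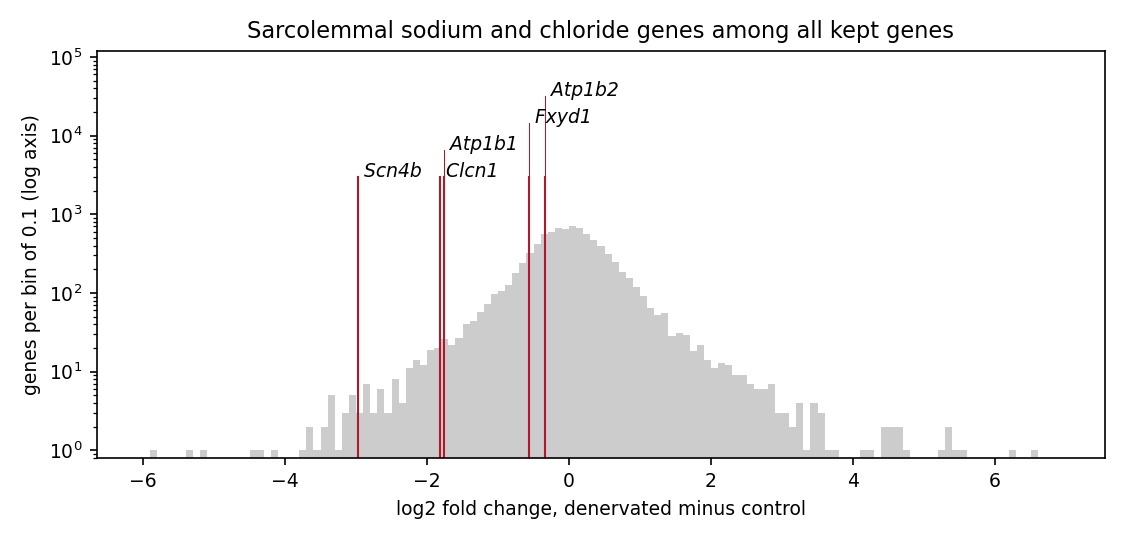
Histogram of the log2 fold change (denervated minus control, horizontal axis) of all 8740 kept genes, with counts on a log axis, and red lines at the 5 genes described here. Scn4b (-2.97), Clcn1 (-1.82) and Atp1b1 (-1.76) lie in the tail of falls, whereas Fxyd1 (-0.57) and Atp1b2 (-0.34, which turned to 0.12 without scaling between arrays) lie within the bulk.

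Other genes of the same currents were taken from 6 lists. Median log2 fold changes were 0.19 for sodium channels, -0.29 for their partners, -0.24 for chloride genes and 0.17 for Clcn1 regulators. They were -0.34 for pump genes and -0.55 for other sodium transporters and scaffolds. Of 16 sodium channel genes 9 had a probe and 3 were kept, and besides Scn4b these were Scn3b and Scn7a. Scn3b, an accessory subunit better known from neurons, had a higher signal in denervated muscle. Its normalized signal was 82.5, 83.0 and 73.1 in denervated muscles, against 33.6, 33.2 and 36.5 in control muscles, where it was above background on 0 arrays. In these background-corrected values it was therefore at least 1.42-fold higher in denervated muscle (adjusted p = 6.69e-05, limma). The bound sets the mean of the denervated values against the lowest signal above background on each control array. Its log2 fold change was 0.474 without background correction and 0.467 in the authors' quantile-normalized values. The bound thus holds for the corrected values only. A gene that passes the filter through 1 group must differ between the groups, so that a p-value gives the rise of Scn3b no support. Scn3b could not be fitted without a denervated replicate, which left 1 called gene in the list. Its other probe stayed under the filter. Scn7a, a sodium channel of glia and other non-excitable cells, gave 0.19 ± 0.16 (log2 fold change ± SE; adjusted p = 0.369, limma) with overlapping groups.

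Among the partners that hold or modulate sodium channels, 1 of 10 kept genes rose and 5 fell, beside 22.2% higher and 21.6% lower among all kept genes. Fgf13, an intracellular growth factor homolog that binds the tail of sodium channels, rose by 0.83 ± 0.11 (log2 fold change ± SE; adjusted p = 0.00052, limma), and its other kept probe gave 0.61. The ankyrin Ank1 fell by 0.91 by its brightest probe and by 1.63 and 1.80 by the other kept probes. Ank2 fell by 0.53, and its other kept probe gave -0.13. The spectrin Sptbn1 had a log2 fold change of -0.47 by its brightest probe, but other kept probes gave 0.68 and -0.08, and its value turned to 0.04 when probes were averaged and to 0.02 without scaling. The call of Ank2 was lost in 10 of 19 alternatives, among them a median shift (-0.27), averaged probes (-0.33), no scaling (-0.025) and the replicate block (adjusted p = 0.0568). It was also lost when denervated replicate 1, denervated replicate 3, control replicate 2 or control replicate 3 was left out (0.0732 to 0.116 for the adjusted p), and that of Sptbn1 without denervated replicate 2 (0.0604) or control replicate 2 (0.0516). The count of changed genes was 3 in place of 6 without denervated replicate 2 or 3 or control replicate 2.

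Of 14 kept chloride channels and transporters 1 rose and 3 fell, beside 22.2% higher and 21.6% lower among all kept genes. Clcn1 had the largest change in this list. Ano10 and Ano1, of the anoctamin family that holds calcium-activated chloride channels, fell by 0.81 ± 0.12 and 0.70 ± 0.13 on the log2 scale (SE, n = 3 per group). Ano1 lost its call without scaling (-0.31, adjusted p = 0.0616, limma), and its log2 fold change was -0.27 without background correction. Slc12a3, best known as the sodium-chloride cotransporter of the kidney, rose by 0.74 ± 0.14. Its signal was 1599, 1748 and 1837 in denervated and 1149, 1108 and 862 in control muscles. Of the Clcn1 relatives found in many tissues, Clcn3 had a log2 fold change of -0.36 ± 0.13 that missed the threshold at an adjusted p of 0.0532 (limma) though its groups did not overlap, and Clcn4 and Clcn7 overlapped between groups.

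Genes known to act on the Clcn1 transcript or its protein were listed as well. Of 13 kept, 5 rose and 2 fell, beside 22.2% higher and 21.6% lower among all kept genes. Mbnl1, which favors the adult splice form of Clcn1, fell by 0.70 ± 0.11 on the log2 scale (adjusted p = 0.00137, limma). The Mbnl1 signal was 11584, 12317 and 12885 in denervated and 21252, 18683 and 19647 in control muscles. Celf1, which opposes it in splicing, rose by 0.80 ± 0.12 (adjusted p = 0.00106, limma), with 2016, 2200 and 1728 in denervated and 1141, 1104 and 1149 in control muscles. Its other kept probes gave 0.89 and 0.34, the second without a call. Cul4b (0.98) and Ddb1 (0.69), parts of a ubiquitin ligase known to act on ClC-1, rose too, whereas Crbn, its substrate receptor, fell by 0.43. Mbnl1, Celf1, Cul4b and Ddb1 kept their sign and their call in all 19 alternatives. Crbn was picked out after its values had been seen, and its fall was not followed in the alternatives. Without scaling the median log2 fold change of all genes stood at 0.45, so that a fall of this size may not hold there.

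Among the sodium pump and FXYD genes, 0 of 9 kept genes rose and 5 fell, beside 22.2% higher and 21.6% lower among all kept genes, and 3 of the 5 are the genes described above. This split depended on the processing, since Atp1b3 missed the threshold narrowly and was called higher in 10 of 19 alternatives. Among these were no background correction (adjusted p = 0.0125, limma) and an offset of 50 (adjusted p = 0.0341, limma). With a median shift, and likewise without scaling, Atp1b3 was called higher while Atp1b2, Fxyd1 and Atp1b4 lost their calls. The other falls were those of Fxyd3, an FXYD protein known from epithelia, and of Atp1b4, which in placental mammals is a protein of the muscle nuclear membrane and no longer a pump subunit. Fxyd3 had a normalized signal of 31.6, 34.7 and 38.8 in denervated muscles, where it was above background on 0 arrays, against 74.5, 183 and 97.7 in control muscles. In these background-corrected values it was at least 2.18-fold lower in denervated muscle. The log2 fold change was -0.69 without background correction and -0.68 in the authors' quantile-normalized values, so that the bound holds for the corrected values only. Fxyd3 passed the filter through the control group alone, so that it had to differ, and it could not be fitted without a control replicate. Atp1b4 fell by 0.76 ± 0.18 on the log2 scale (adjusted p = 0.00933, limma), a call that was lost with a median shift (-0.53, adjusted p = 0.0514), without scaling (-0.29) or with a test of each probe by itself (adjusted p = 0.0678). Without control replicate 1 or 3 the list held 3 changed genes in place of 5. Fxyd5 by its brightest probe, Fxyd2 and Fxyd6 did not pass the threshold. This does not hold in every setting, since the list held 6 changed genes with averaged probes and 4 with a median shift or without scaling. The genes named above do not fill these counts, so that Fxyd5, Fxyd2 or Fxyd6 was called in each of these settings.

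In the list of other sodium transporters and scaffolds 4 genes were kept. Of these 1 rose and 3 fell, beside 22.2% higher and 21.6% lower among all kept genes. Slc9a3r1 and Slc9a3r2 among them are scaffolds and not transporters. The scaffold Slc9a3r2 (-0.88) and the exchanger Slc24a3 (-0.62), which moves calcium and potassium against sodium, fell. The call of Slc24a3 was lost without scaling (-0.13, adjusted p = 0.372, limma). The sodium-calcium exchanger Slc8a1 was lower by 0.48 on the log2 scale, a value that turned to 0.02 without scaling between arrays. Slc9a3r1, a scaffold like Slc9a3r2, had a log2 fold change of 0.46 ± 0.16. Its call was lost in 10 of 19 alternatives, among them those that left out denervated replicate 1, denervated replicate 2, control replicate 1 or control replicate 2 (0.0913 to 0.147 for the adjusted p).

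**Figure D3:**
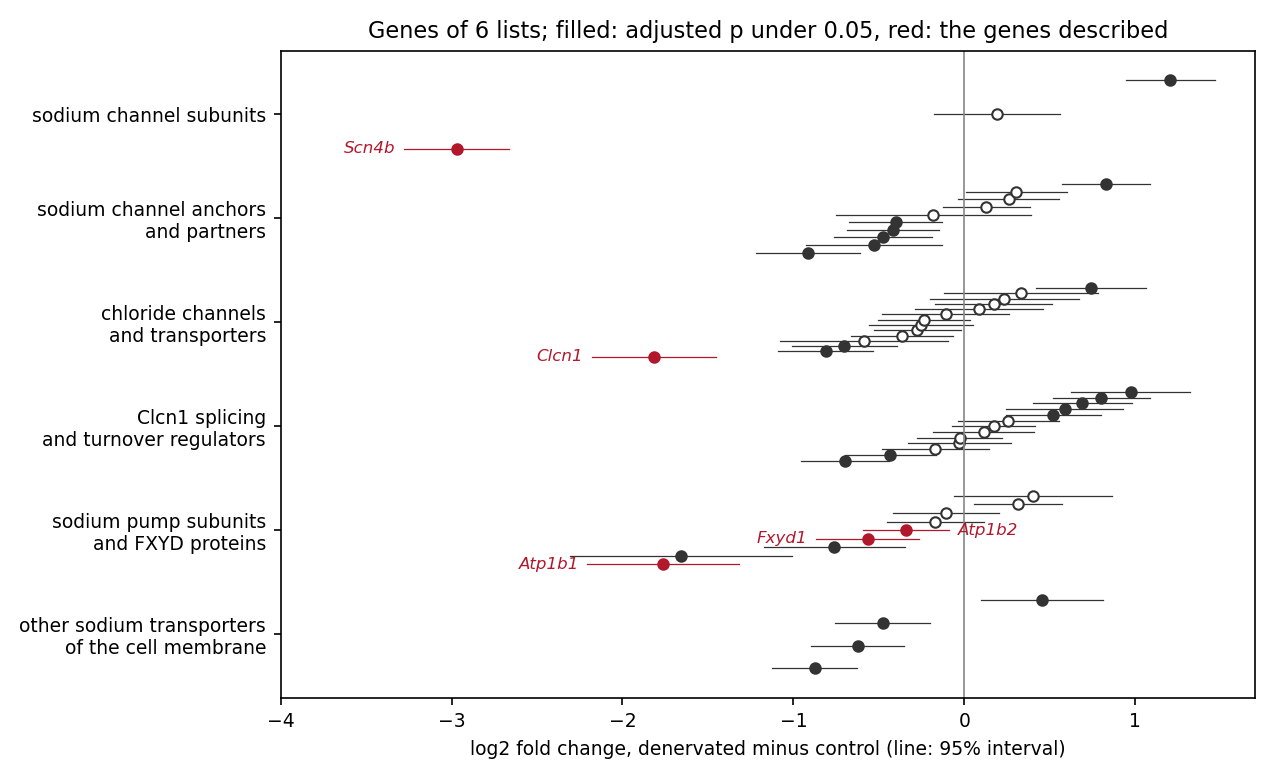
Log2 fold change (denervated minus control) with its 95% interval for the kept genes of the 6 lists, 1 point per gene; filled points have an adjusted p under 0.05 and red marks the 5 genes described here. Scn4b (-2.97) and Clcn1 (-1.82) lie apart from the other genes of their lists, and the points of Scn3b and Fxyd3 rest on a group that was not above background, so that their size has no rank; Atp1b2, Sptbn1 and Slc8a1 lie close enough to 0 that they turned to 0.12, 0.02 and 0.02 without scaling between arrays.

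The genes with the most similar profile were sought among all kept genes, by the root mean square difference of log2 values over the 6 arrays after each gene had been centred on its own mean. For Scn4b these were Kcna7, a voltage-gated potassium channel (0.11 log2 units, with a log2 fold change of -2.93), and Camk2a, a calcium-dependent kinase (0.15, with -2.83). For Clcn1 they were the slow myosin light chain Myl2 and Tcea3 (both 0.12), for Atp1b1 Abhd18 (0.053) and Alox12 (0.11), for Atp1b2 Srsf9 (0.025) and Chst7 (0.033), and for Fxyd1 the caveolar coat protein Cavin1 (0.036) and N4bp2l1 (0.053). A small difference says that 2 genes changed by a like amount on these arrays.

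**Figure D4:**
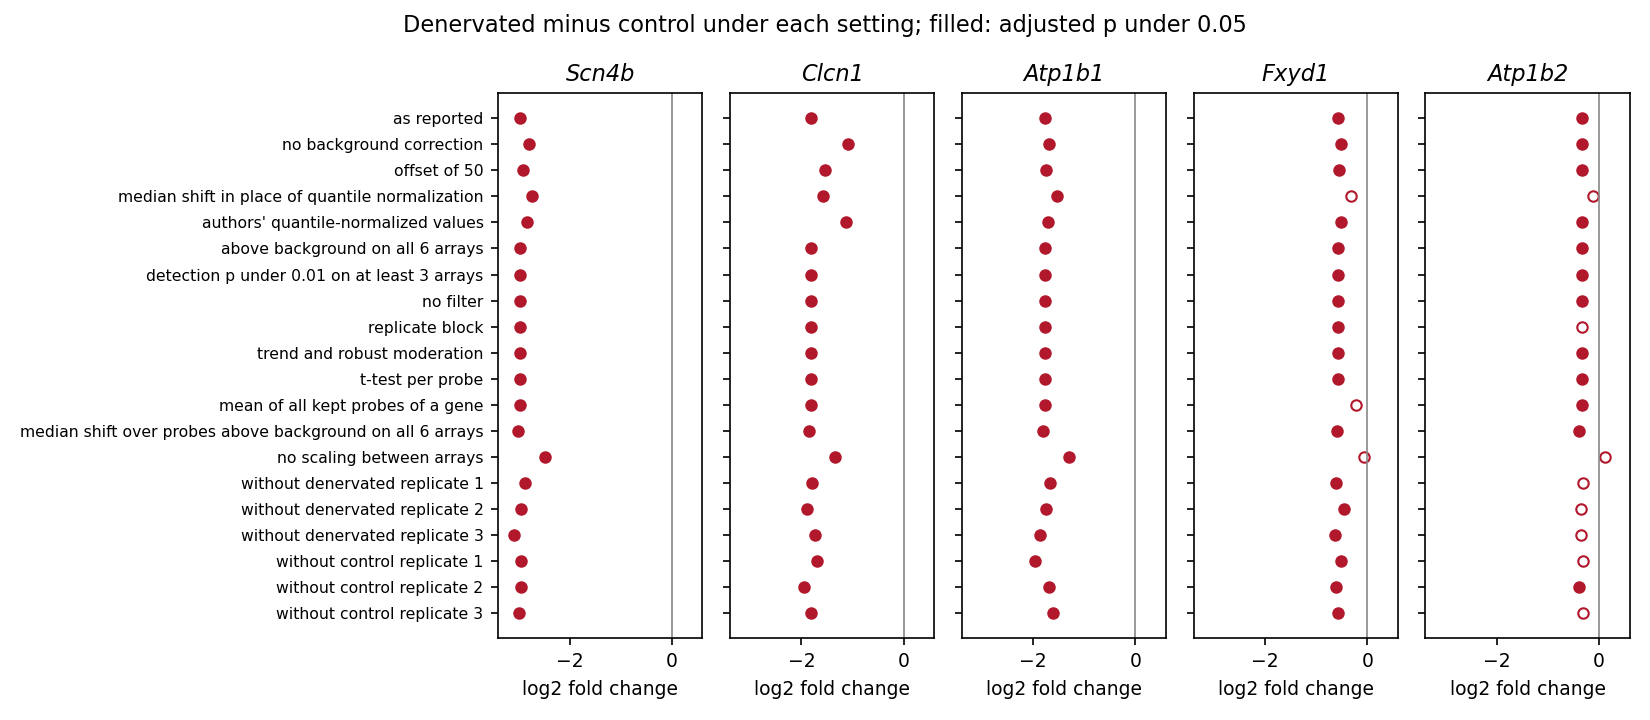
Log2 fold change (horizontal axes) of the 5 genes in the analysis as reported and under 19 alternative settings (rows); filled points have an adjusted p under 0.05. Scn4b, Clcn1 and Atp1b1 stayed below 0 and called in all rows, whereas Fxyd1 lost its call in 3 rows and Atp1b2 in 8, in 1 of which (no scaling between arrays) it turned to 0.12.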

How the data were processed

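Bead arrays were read and summarized by the authors in GenomeStudio. The deposited table held, per probe, a linear signal intensity that was neither background-subtracted nor normalized, its bead standard error, the number of beads (whole counts, per the file headers) and a detection p-value, which per the file headers ranks the probe against negative controls. A second deposited table held intensities quantile-normalized by the authors and was used as 1 of the alternatives. The number of sample columns left unused was 0.

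The neqc function of limma 3.58.1 in R 4.3.3 took the background from the detection p-values (normal-exponential model), added an offset of 16, scaled arrays by quantiles and took log2; the normalized signal is this value on the linear scale. The log2 offset understates changes of dim probes. Probes with a detection p under 0.05 on at least 3 of 6 arrays were kept (12546). Gene symbols came from the platform annotation (1 gene for 23978 probes, none for 1719, several for 0), and 23962 were matched to RefSeq, which changed 0 symbols. A gene is represented by its brightest kept probe. Denervated and control were compared with lmFit and eBayes over all kept probes, Benjamini-Hochberg adjusted, threshold 0.05; the script was tested on simulated data. The genes, lists and tests were chosen with earlier results of these data known. Named list genes are the up to 4 called non-members with the largest change, with all kept sodium channels. For each of the 5 genes the 2 genes with the most similar profile are given. The groups took separate stretches of 1 chip, so that position and group cannot be told apart. Labels number the samples 1 to 3 in each group without naming the mouse.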

Additional observations from a re-analysis of the deposited data

How the results depend on the processing

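Alternatives changed the background, the offset, the scaling, the source of the values, the filter, the test or the probes of a gene, or left out an array; a median shift over probes above background on all 6 arrays and no scaling were added after the data had been seen. Scn4b, Clcn1 and Atp1b1 kept their direction and side of the threshold in all 19. The difference between Atp1b1 and Atp1b2 kept its direction, at a p that was the smallest possible in each. The log2 fold change of Atp1b2 was -0.12 with a median shift (adjusted p = 0.465), 0.12 without scaling and -0.40 to -0.31 with 1 array left out, and that of Fxyd1 was -0.32 with a median shift, -0.23 with averaged probes and -0.073 without scaling. The dimmer Fxyd1 probe ran from -0.0077 to 0.19 with 1 array left out. Sptbn1 turned to 0.044 with averaged probes and to 0.022 without scaling, as did Slc8a1 (0.018 without scaling). The count of changed genes in a list was 1 for sodium channels with the filter on all 6 arrays (1 to 2 with 1 array left out). For chloride genes it was 7 with the added median shift and 8 without scaling. Without scaling it was 11 for Clcn1 regulators and 2 for other transporters and scaffolds. With 1 array left out it was 3 to 5 for channel partners and 3 to 4 for pump genes. Rises made up 50.6% of calls over all genes, 73.2% with a median shift and 87% without scaling, settings that put the median log2 fold change over all genes at 0.20 and 0.45. A limma fit with replicate numbers as a block gave Atp1b2 an adjusted p of 0.0568 at a log2 fold change of -0.34. It called 3794 genes, against 3829. Same-numbered samples deviated together at -0.0167, 0.161 and 0.164, and differently numbered ones at -0.235 to 0.132. These values do not settle whether the numbers mark pairs. The labels do not name the mouse, so that the main fit took no pairs. Results for Scn4a could not be computed, since it had no probe. Dim probes such as the second of Clcn1 lie too close to background to give a size.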
